A study of Homo sapiens with 16 samples.

Results

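The NF-κB transcription factor system was followed through stepwise gemcitabine resistance with 10 genes, taken by symbol from the 39007 genes of the deposited table and all found there. They comprised the 5 subunits of the factor (NFKB1, NFKB2, REL, RELA and RELB), 3 inhibitors of the IκB family (NFKBIA, NFKBIE and NFKBIZ) and 2 genes of the feedback and survival response (TNFAIP3 and BIRC3). The samples were 16 RNA libraries of the T24 human bladder cancer cell line, 4 for each of 4 phases. Parental cells before selection were phase P0. The early (P3), intermediate (P7) and late (P15) phases came from a derivative selected by repeated rounds of gemcitabine. This drug is a nucleoside analogue that blocks DNA synthesis. All 16 titles carry the same tag, NT, which they do not spell out. The paper's RNA methods do not say whether gemcitabine was present when RNA was taken. All cells were grown in DMEM with fetal bovine serum and antibiotics, and the resistant phases came from 1 of the resistant lines made from T24, GRC1, so phase could not be told apart from the history of that line. Nothing in the labels says that the 4 libraries of a phase came from separate cultures, so the p-values measure the spread between these libraries, which may be technical.

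NF-κB is a family of dimers that share a Rel homology domain. In the canonical route, NFKBIA and NFKBIE hold RELA and REL dimers in the cytoplasm until the IκB kinase complex marks the inhibitors for degradation. In the non-canonical route, the kinase NIK (MAP3K14) drives the processing of the NFKB2 precursor into p52, which enters the nucleus with RELB. NFKBIA, TNFAIP3, BIRC3, NFKB2 and RELB are textbook targets of the factor itself, so that their mRNA is often read as its output, and in bladder cancer cells the pathway is known for its inflammatory cytokine programme and for protection from cell death.

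The values were log2 of CPM (a gene's reads as a share of all reads counted in its library, rescaled) plus 1, a scale that understates changes of low genes. Estimated totals were 33700000 to 50000000 counts per library, at which 1 count equals 0.02 to 0.0297 CPM, and the lowest log2 value of the 10 genes in any library was 3.32 (REL). The epithelial markers (4 keratins, EPCAM and CDH1) summed to 2075 to 2153 CPM in P0 and to 673 to 751 CPM in P15. KRT18 went the other way, from a mean of 471 CPM in P0 to 633 CPM in P15, while KRT7, KRT8, KRT19 and EPCAM fell. CDH1, the epithelial cadherin, averaged 0.0255 CPM over all libraries. Urothelial markers summed to 95.7 to 103 CPM in P0 and to 18.4 to 21.9 CPM in P15. Of these, only UPK1A rose, from a mean of 0.0749 CPM in P0 to 1.98 CPM in P15. The part of these marker changes in the P15 results was not tested. In such bulk RNA fewer cells of a type and less RNA per cell cannot be told apart. Leukocyte markers summed to at most 0.204 CPM in any library, endothelial markers to at most 7.95 CPM and fibroblast markers to at most 28.8 CPM, the last in P15. No label names a sequencing run, but the sample-sheet numbers in the titles repeat, so at least 2 sheets are inferred. With 2 sheets, P0 and P7 fall together and 3 libraries each of P3 and P15 fall together, while replicate 2 of P3 (number 1) and replicate 1 of P15 (number 16) fit either. As an alternative these 2 libraries were placed with P0 and P7, to give a set of 10 libraries and a set of 6. This assignment is inferred and not unique. Comparisons of P3 or P15 with P0 or P7 mostly cross the inferred sets, so set and phase cannot be told apart there.

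The sequences upstream of the genes whose mRNA changed most, and of NFKBIA, show where the factor's own binding motif occurs before their start sites. RefSeq start sites on GRCh38 were given for 8 of the 10 genes, and RELB and NFKBIE had no entry. The 250 bases before each start were searched on both strands for the 10-base κB consensus, and matches on opposite strands were allowed to overlap. At least 1 match was found for 7 of the 8 genes, in 9 of their 13 windows, while 5.21% of all 35116 windows held a match and 0.635% held at least 2. RELA held none in either window, which says only that these letters were not there. Matches are in capitals, on the strand of the gene, and annotated exon bases are left out of the first 3 sequences. BIRC3 lies on chromosome 11 (chr11:102317234-102317483, plus strand) with matches 199 to 190 and 135 to 126 bases before its start, TNFAIP3 on chromosome 6 (chr6:137867009-137867213, plus strand) with matches 67 to 58 and 55 to 46 bases before its start, and NFKBIA on chromosome 14 (chr14:35404750-35404999, minus strand) with a match 81 to 72 bases before its start.
BIRC3: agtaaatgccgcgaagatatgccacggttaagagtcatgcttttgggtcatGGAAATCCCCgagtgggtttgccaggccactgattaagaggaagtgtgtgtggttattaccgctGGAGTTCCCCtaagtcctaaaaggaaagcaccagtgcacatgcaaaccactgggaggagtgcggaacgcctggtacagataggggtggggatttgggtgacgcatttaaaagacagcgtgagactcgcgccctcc
TNFAIP3: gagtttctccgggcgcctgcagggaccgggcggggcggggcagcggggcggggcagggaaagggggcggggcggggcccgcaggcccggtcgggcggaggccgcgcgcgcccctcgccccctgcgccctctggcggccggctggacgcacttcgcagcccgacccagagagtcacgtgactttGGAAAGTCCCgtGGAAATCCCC
NFKBIA: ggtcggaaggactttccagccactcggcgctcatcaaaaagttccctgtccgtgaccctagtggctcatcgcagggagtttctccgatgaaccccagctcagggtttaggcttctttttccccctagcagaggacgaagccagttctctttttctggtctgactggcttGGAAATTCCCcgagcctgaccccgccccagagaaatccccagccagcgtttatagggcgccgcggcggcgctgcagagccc

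The subunit genes NFKB1, NFKB2 and REL, and NFKBIZ, also held matches, some of which are shown as 30-base windows around the match. Annotated exon bases were not left out of these windows. All 250 bases searched lay in exons for windows a and b of NFKB2 and for the NFKBIZ window (exons of NXPE3). Exons covered 240 of them for NFKB1, 153 for REL and 12 for window c of NFKB2. For NFKB2, 3 windows are shown, at chr10:102394461-102394490, chr10:102394490-102394519 and chr10:102395674-102395703, before 2 of its 3 RefSeq starts. In the first of them 2 matches on opposite strands overlap. A further match at chr10:102395519-102395548 is not printed. The NFKB1 window is chr4:102501300-102501329 and the REL window chr2:60881517-60881546, where 2 matches on opposite strands overlap. NFKBIZ, at chr3:101827757-101827786, carried the same 10 letters as NFKB1, and its other match, at chr3:101849265-101849294, is not printed.
NFKB2 a: gaaacgtcatGGGAATTCCCCcctccgggg
NFKB2 b: gggccgagaaGGGGCTTTCCcggccctgag
NFKB2 c: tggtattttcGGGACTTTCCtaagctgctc
NFKB1: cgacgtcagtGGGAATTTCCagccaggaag
REL: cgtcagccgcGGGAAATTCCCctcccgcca
NFKBIZ: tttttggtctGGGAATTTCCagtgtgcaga

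The 10 genes did not move as a block. TNFAIP3 peaked in early phase P3, while BIRC3, RELB and NFKB2 peaked in late phase P15, where NFKB1, RELA, NFKBIE and TNFAIP3 had their lowest means. Phases were compared with limma over all 13249 genes whose mean exceeded 1 CPM, and a gene was called at an adjusted p below 0.05 and a change of at least 2-fold. Against P0, 1 of the 10 genes was called at P3 (TNFAIP3), where 4.46% of all tested genes were, 0 at P7, where 3.37% were, and 3 at P15 (NFKB2, RELB and BIRC3), where 23.6% were. The 0 at P7, beside 1.86% of tested genes called higher and 1.52% lower, came from limma with the fold threshold. There 6 of the 10 genes had an unadjusted p below 0.05, beside 8671 of the 13249 tested genes. Between P7 and P3 there was 1 call (TNFAIP3, against 1.83% of tested genes), between P15 and P3 there were 3 (RELB, BIRC3 and TNFAIP3, against 27.1%), and between P15 and P7 there were 3 (NFKB2, RELB and BIRC3, against 25.5%).

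Without the fold threshold, the direction of the small changes can be read. At P3, 5 of the genes rose from P0 and 2 fell at an adjusted p below 0.05, beside 31.4% and 37.3% of tested genes (68.7% in all). At P7, 0 rose from P0 and 6 fell, beside 27.9% and 34.2% (62.1% in all), and 0 rose and 7 fell from P3, beside 30.3% and 28% of tested genes (58.2% in all). The median change from P3 to P7 was -0.26 for the 10 genes and 0.01 for all tested genes on the log2 scale. At P15, 4 rose and 5 fell from P0, beside 45.3% and 40.9% (86.2% in all), so that the share of members that changed was close to the share of all genes. From P3 to P15, 4 rose and 4 fell (beside 46.1% and 41.1%, 87.2% in all), and from P7 to P15, 6 rose and 4 fell (beside 46.3% and 40.1%, 86.4% in all). The libraries of the phases compared did not overlap for 8 of the 10 genes between P3 and P0, 5 between P7 and P0 and 9 between P15 and P0, where 60.1%, 52.6% and 79.7% of tested genes did not. Between P7 and P3 this held for 7, between P15 and P3 for 8 and between P15 and P7 for 9, beside 51.9%, 82.1% and 80.8%. The comparisons against P0 share the P0 libraries.

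**Figure D1:**
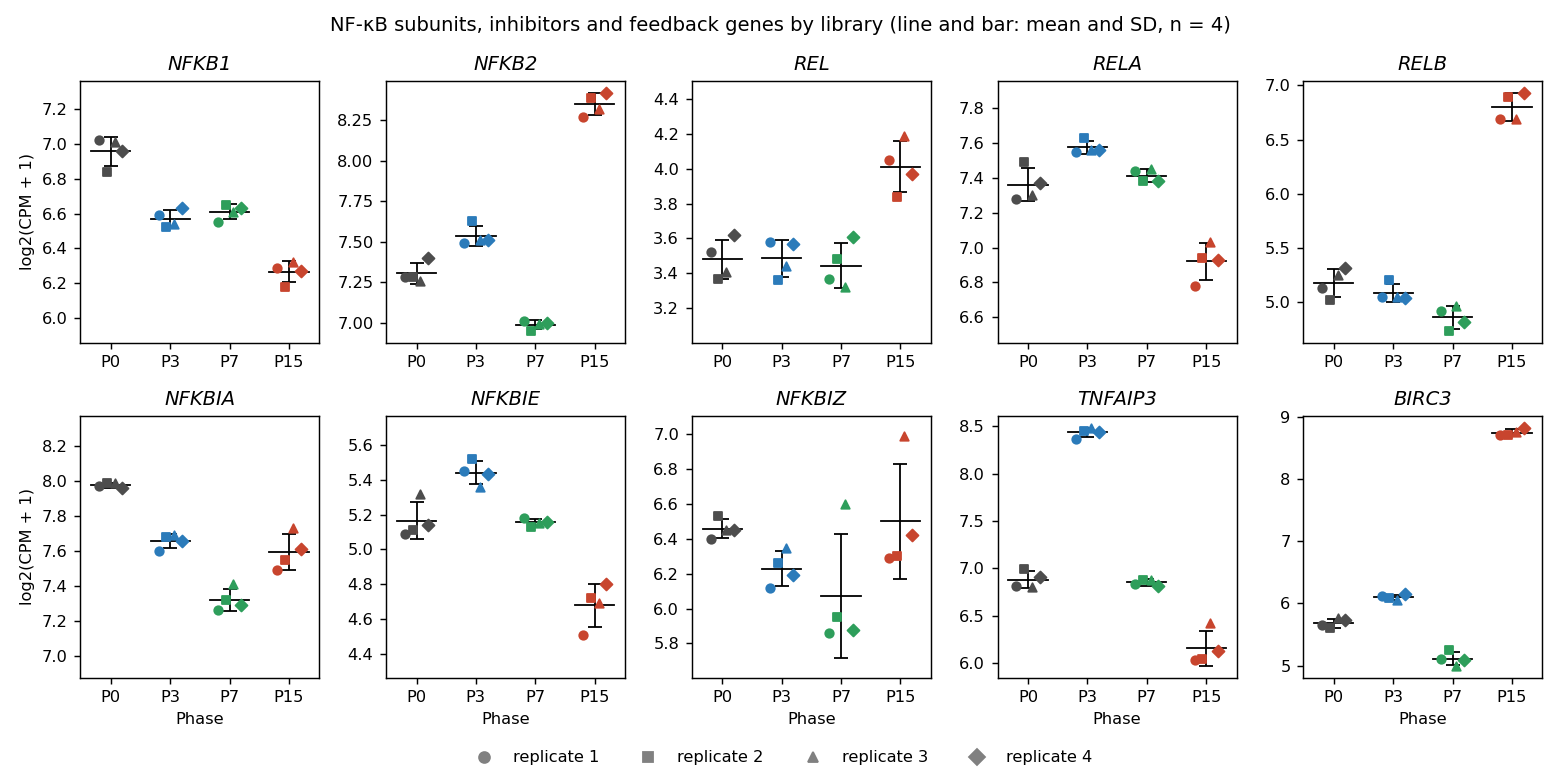
Each panel plots log2(CPM + 1) of a gene (vertical axis, own range in each panel) in the 16 libraries by phase (horizontal axis), with symbols for replicates and a line and bar for the mean and SD of 4 libraries. BIRC3, RELB and NFKB2 lie highest in P15, TNFAIP3 lies highest in P3, and NFKBIZ has a library far above the other 3 in P7 and in P15.

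NFKB2 (chr10:102394110-102402524, plus strand, GENCODE on GRCh38, as for the genes below) encodes the p100 precursor of p52. Its log2 values in replicates 1 to 4 were 7.28, 7.28, 7.26 and 7.40 in P0, and 7.49, 7.63, 7.51 and 7.51 in P3. They were 7.01, 6.95, 6.99 and 7.00 in P7 and 8.27, 8.39, 8.32 and 8.42 in P15. No 2 phases overlapped, and the order from lowest to highest was P7, P0, P3 and P15. NFKB2 rose by 0.23 from P0 to P3 (SE 0.04, limma, adjusted p = 1.2e-05), fell by 0.55 from P3 to P7 (SE 0.04, limma, adjusted p = 2.0e-11) and rose by 1.36 from P7 to P15 (SE 0.04, limma, adjusted p = 1.7e-20), a 2.57-fold step. Against P0, its level at P15 was 2.06-fold higher, close to the 2-fold threshold. Within the inferred set of 10 libraries, with a single P15 library, that change was 0.97 on the log2 scale and stayed under 2-fold.

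RELB (chr19:45001461-45038192, plus strand), the partner of p52, kept to a lower level until P15. P0 gave 5.13, 5.02, 5.25 and 5.32, P3 gave 5.05, 5.21, 5.05 and 5.04, P7 gave 4.92, 4.74, 4.97 and 4.82, and P15 gave 6.69, 6.89, 6.69 and 6.93 (log2, replicates 1 to 4). P15 lay above every other library, while P0 and P3 overlapped. RELB at P15 was 3.07-fold higher than in P0 (log2 change 1.62, SE 0.07, limma, adjusted p = 3.9e-17) and 3.83-fold higher than in P7. Before that it had fallen by 0.32 from P0 to P7 (SE 0.07, limma, adjusted p = 2.2e-04), and the change from P0 to P3 was -0.09 (SE 0.07, limma, adjusted p = 0.22). Without replicate 2 of P0 this last change was -0.15 and passed the threshold (limma, adjusted p = 0.0499).

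NFKB1 (chr4:102501330-102617302, plus strand) encodes the precursor of p50 and is the canonical counterpart of NFKB2. Against P0 it fell at P3 and P15, where NFKB2 rose. At P7 both fell, NFKB1 by -0.35 and NFKB2 by -0.32 on the log2 scale. NFKB1 was 7.02, 6.84, 7.01 and 6.96 in P0, 6.59, 6.52, 6.54 and 6.63 in P3, and 6.55, 6.65, 6.61 and 6.63 in P7. P15 had 6.29, 6.18, 6.32 and 6.27 (log2, replicates 1 to 4). P0 was highest and P15 lowest, both clear of the other libraries, and P3 and P7 overlapped. NFKB1 fell by 0.69 from P0 to P15 (SE 0.04, limma, adjusted p = 6.7e-14), so that P0 stood 1.62-fold above P15. P7 and P3 differed by 0.04 (SE 0.04, limma, adjusted p = 0.42).

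RELA (chr11:65653599-65663090, minus strand) encodes p65, the main activating subunit of the canonical dimer. It was 7.28, 7.49, 7.30 and 7.37 in P0, 7.55, 7.63, 7.56 and 7.56 in P3, and 7.44, 7.38, 7.45 and 7.38 in P7. P15 had 6.78, 6.94, 7.03 and 6.93 (log2, replicates 1 to 4). P3 was highest and P15 lowest, with no overlap with the other phases, while P0 and P7 overlapped. RELA rose by 0.22 at P3 (SE 0.05, limma, adjusted p = 2.2e-04) and fell by 0.44 from P0 to P15 (SE 0.05, limma, adjusted p = 2.9e-09). P7 differed from P0 by 0.05 (SE 0.05, limma, adjusted p = 0.33).

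REL (chr2:60881491-60931612, plus strand) encodes c-Rel, best known from lymphocytes, and was the least expressed subunit. It ranged from 3.37 to 3.62 in P0, from 3.36 to 3.58 in P3, from 3.32 to 3.61 in P7 and from 3.84 to 4.19 in P15 (log2, 4 libraries each). P15 alone lay above the rest, by 0.53 over P0 (SE 0.08, limma, adjusted p = 1.9e-06). P3 and P7 differed from P0 by 0.01 and -0.04 (SE 0.08 each), with adjusted p = 0.94 and 0.73 from limma. In the GENCODE annotation, 33.3% of the exon bases of REL are shared with another gene on the same strand, so its counts are uncertain.

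**Figure D2:**
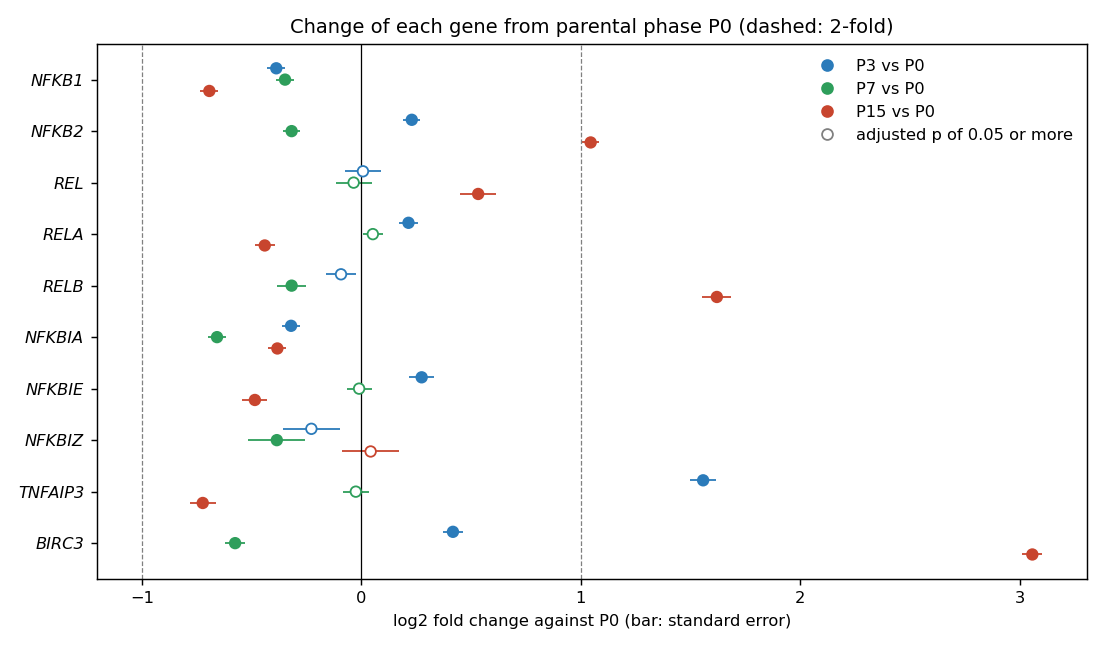
The points give the log2 fold change of each gene against P0 at P3, P7 and P15 (horizontal axis, bars are standard errors), with open points where the adjusted p was 0.05 or more. Only TNFAIP3 at P3 and NFKB2, RELB and BIRC3 at P15 pass the dashed 2-fold lines.

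NFKBIA (chr14:35401079-35404749, minus strand) encodes IκBα, the inhibitor that is resynthesised first after activation. It was 7.97, 7.99, 7.99 and 7.96 in P0, 7.60, 7.68, 7.69 and 7.66 in P3, and 7.26, 7.32, 7.41 and 7.29 in P7. P15 had 7.49, 7.55, 7.73 and 7.61 (log2, replicates 1 to 4). Every library of the later phases lay below P0, and P7 lay lowest. NFKBIA fell by 0.32 at P3 (SE 0.04, limma, adjusted p = 2.4e-07), by 0.66 at P7 (SE 0.04, limma, adjusted p = 1.1e-12) and by 0.38 at P15 (SE 0.04, limma, adjusted p = 4.8e-09), each against P0. P15 and P3 overlapped and differed by -0.06 (SE 0.04, limma, adjusted p = 0.15). Without replicate 3 of P15 this difference was -0.11 and passed the threshold (limma, adjusted p = 0.00788), as it did with equal medians (-0.10, limma, adjusted p = 0.018) and in the inferred set of 10 libraries (-0.19, limma, adjusted p = 0.021), while quantile normalization turned its sign (0.03).

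NFKBIE (chr6:44258166-44265788, minus strand), which encodes IκBε, was highest in P3 and lowest in P15, as RELA was. Its values were 5.09, 5.11, 5.32 and 5.14 in P0, 5.45, 5.52, 5.36 and 5.43 in P3, and 5.18, 5.13, 5.15 and 5.16 in P7. P15 had 4.51, 4.72, 4.69 and 4.80 (log2, replicates 1 to 4). Neither P3 nor P15 overlapped any other phase, and P7 lay inside the range of P0. It rose by 0.28 at P3 (SE 0.06, limma, adjusted p = 1.8e-04) and fell by 0.49 from P0 to P15 (SE 0.06, limma, adjusted p = 3.0e-08). P7 differed from P0 by -0.01 (SE 0.06, limma, adjusted p = 0.89), and this sign turned under quantile normalization and a median shift.

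NFKBIZ (chr3:101827991-101861022, plus strand) encodes IκBζ, a nuclear IκB protein that acts with NF-κB at secondary response genes. It was 6.40, 6.53, 6.45 and 6.45 in P0, 6.12, 6.26, 6.35 and 6.19 in P3, and 5.86, 5.95, 6.60 and 5.88 in P7. P15 had 6.29, 6.30, 6.99 and 6.42 (log2, replicates 1 to 4). All libraries of P3 lay below those of P0 (-0.23, limma, adjusted p = 0.12), and in P7 and P15 replicate 3 lay far above the other 3 libraries, and the SD of these phases was 0.35 and 0.33 against 0.05 in P0. The fit of all 16 libraries shares 1 estimate of the spread. With only P0 and P3 in the fit, the change at P3 passed (limma, adjusted p = 5.1e-04). NFKBIZ fell by 0.39 from P0 to P7 (SE 0.13, limma, adjusted p = 0.013) and rose by 0.43 from P7 to P15 (SE 0.13, limma, adjusted p = 0.0040), with overlapping libraries. The fall at P7 did not pass without replicate 1 of P7 (-0.31, limma, adjusted p = 0.057) or replicate 4 (-0.32, limma, adjusted p = 0.052), nor with no filter on low genes (limma, adjusted p = 0.088). The rise from P7 to P15 was 0.26 without replicate 3 of P15 and 0.60 without replicate 3 of P7. In the inferred set of 10 libraries, with a single P15 library, it was 0.22. P15 against P3 was 0.27 (SE 0.13, limma, adjusted p = 0.056) and passed without replicate 3 of P3 (0.31, limma, adjusted p = 0.048), replicate 1 of P15 (0.34, limma, adjusted p = 0.027) or replicate 2 of P15 (0.34, limma, adjusted p = 0.029). With only P3 and P15 in the fit it also passed (limma, adjusted p = 0.025). Without replicate 3 of P15 it was 0.11 and did not pass. P7 against P3 was -0.16 (limma, adjusted p = 0.31), and without replicate 3 of P7 it was -0.33 (limma, adjusted p = 0.00871). P15 against P0 was 0.04 (SE 0.13, limma, adjusted p = 0.76) and turned to -0.12 without replicate 3 of P15.

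TNFAIP3 (chr6:137867214-137883314, plus strand) encodes A20, the ubiquitin-editing enzyme that shuts off signalling upstream of the IκB kinases. Its values were 6.81, 6.99, 6.80 and 6.91 in P0, 8.37, 8.45, 8.48 and 8.44 in P3, and 6.84, 6.88, 6.88 and 6.81 in P7. P15 had 6.03, 6.04, 6.42 and 6.13 (log2, replicates 1 to 4). P3 stood alone at the top, P0 and P7 overlapped, and P15 stood alone at the bottom. TNFAIP3 rose 2.94-fold from P0 to P3 (log2 change 1.56, SE 0.06, limma, adjusted p = 8.4e-17), and 1.58% of tested genes had a larger change in either direction. From P3 to P7 it fell by 1.58 (SE 0.06, limma, adjusted p = 2.5e-16), and P7 differed from P0 by -0.03 (SE 0.06, limma, adjusted p = 0.73). From P0 to P15 it fell by 0.72 (SE 0.06, limma, adjusted p = 4.3e-11), which left P3 4.86-fold above P15. Within the inferred set of 10 libraries, with a single P3 library, the rise at P3 was 1.57.

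BIRC3 (chr11:102317484-102339403, plus strand) encodes cIAP2, a ubiquitin ligase of the TNF receptor complexes that restrains NIK and protects from cell death. It was 5.65, 5.60, 5.76 and 5.73 in P0, 6.12, 6.08, 6.06 and 6.15 in P3, and 5.10, 5.25, 5.00 and 5.09 in P7. P15 had 8.70, 8.70, 8.75 and 8.82 (log2, replicates 1 to 4). No 2 phases overlapped, and the order was P7, P0, P3 and P15, as for NFKB2. BIRC3 at P15 was 8.33-fold higher than in P0 (log2 change 3.06, SE 0.05, limma, adjusted p = 6.6e-26) and 12.4-fold higher than in P7 (log2 change 3.63, SE 0.05, limma, adjusted p = 2.1e-27). Of the tested genes, 2.95% changed more between P15 and P0. BIRC3 rose by 0.42 from P0 to P3 (SE 0.05, limma, adjusted p = 2.4e-08). Its fall from P3 to P7 was 0.99 (SE 0.05, limma, adjusted p = 1.0e-14), just under 2-fold, and reached 2-fold without replicate 2 of P3, replicate 3 of P3 or replicate 2 of P7, the lowest value being -1.04. The P15 rise was 3.02 in the inferred set of 10 libraries, with a single P15 library, and the set of 6 gave 2.65 between P15 and P3. BIRC2, the neighbouring paralog, rose by 0.75 from P0 to P15 (SE 0.04, limma, adjusted p = 1.3e-14), and counts do not show how reads shared by both genes were assigned.

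To ask whether the subunit mRNA balance changed, differences between genes were taken within each library, which leaves out the scaling of the library. Subunit protein, processing to p52 and dimers were not measured. In P0 NFKB2 minus NFKB1 was 0.35 ± 0.11 (log2, SD, n = 4 libraries), P3 had 0.97 ± 0.10, P7 had 0.38 ± 0.07 and P15 had 2.09 ± 0.11. The mRNA balance of the precursors thus moved to NFKB2 by 0.62 at P3 and by 1.74 at P15, each against P0. Each shift had p = 0.029 (exact permutation test, two-sided, adjusted p = 0.040 over 24 tests). For 4 libraries against 4, 0.029 is the smallest p that this test can give. P7 differed from P0 by 0.03 (exact permutation test, two-sided, p = 0.74, adjusted p = 0.74).

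RELB minus RELA was -2.18 ± 0.20 in P0 (log2, SD, n = 4 libraries) and -2.49 ± 0.05 in P3, then -2.55 ± 0.07 in P7. P15 had -0.12 ± 0.15, so that the libraries of P15 reached as high as 0.00. The shift of 2.06 from P0 to P15 had p = 0.029 (exact permutation test, two-sided, adjusted p = 0.040), and those from P3 and P7 to P15 were 2.37 and 2.43 with the same p. REL minus RELA rose by 0.97 from P0 to P15 (exact permutation test, two-sided, p = 0.029, adjusted p = 0.040). NFKBIA minus RELA, the inhibitor against its canonical client, fell from 0.62 ± 0.09 in P0 to 0.08 ± 0.04 in P3 and -0.09 ± 0.06 in P7. P15 had 0.68 ± 0.05. Its fall of 0.54 at P3 and of 0.71 at P7 each had p = 0.029 (exact permutation test, two-sided, adjusted p = 0.040), and P15 differed from P0 by 0.06 (exact permutation test, two-sided, p = 0.26, adjusted p = 0.29).

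**Figure D3:**
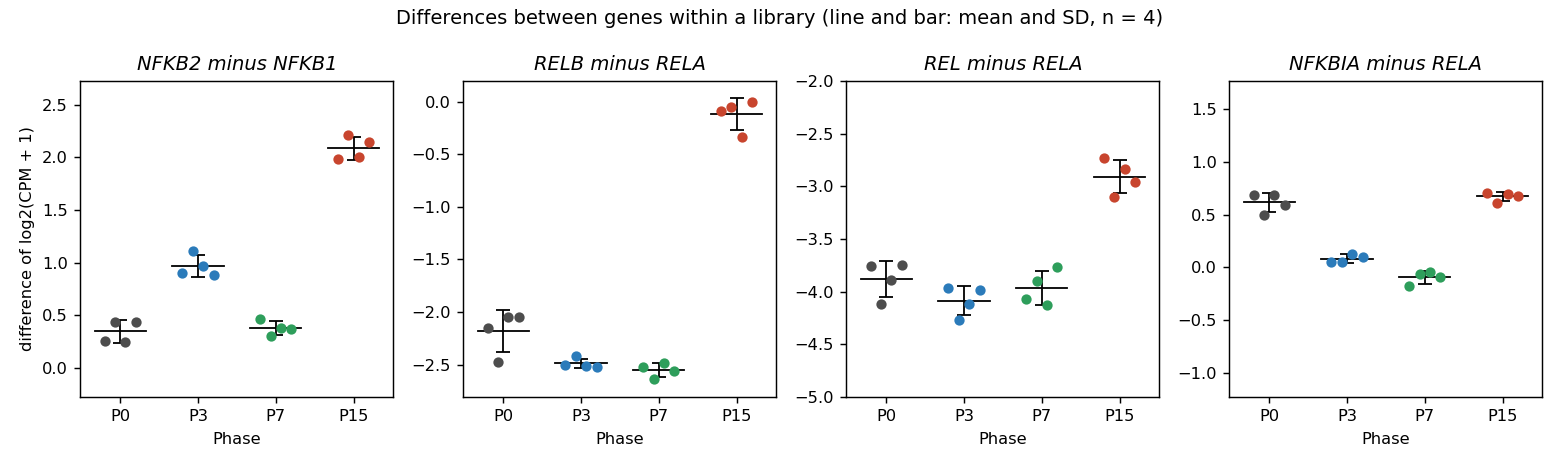
Each panel plots the difference of log2(CPM + 1) between 2 genes of the same library (vertical axis, own range) by phase (horizontal axis), with a line and bar for the mean and SD of 4 libraries. RELB minus RELA lies between -2.64 and -2.05 except in P15, where it lies between -0.34 and 0.00.

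Levels of different genes were compared per length, as CPM per kb of the GENCODE canonical transcript. On this length the order of the subunits in P0 was RELA (65.0 ± 4.4, SD, n = 4 libraries), NFKB2 (52.2 ± 2.4), NFKB1 (30.4 ± 1.7), RELB (15.7 ± 1.5) and REL (0.917 ± 0.079). In P15 NFKB2 led with 108 ± 5.1 CPM per kb, RELB (49.1 ± 4.4) and RELA (47.8 ± 3.4) lay within each other's spread, and NFKB1 was at 18.7 ± 0.78. On this length NFKBIA had the highest level of the 10 genes in every phase, from 102 ± 4.7 in P7 to 161 ± 1.7 in P0. BIRC3 went from 7.34 ± 0.38 in P0, the second lowest of the 10, to 62.2 ± 2.5 in P15, the third highest. With all annotated exons as the length, the values in P0 were 30.0 for RELA and 28.2 for NFKB2 and those in P15 were 37.0 for RELB and 22.1 for RELA, so that the distance between these pairs depends on which transcripts are counted. On that length the order also turned in places: RELB (11.8) lay above NFKB1 (7.87) in P0, and NFKB2 (58.3) and BIRC3 (57.1) lay above NFKBIA (56.8) in P15.

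**Figure D4:**
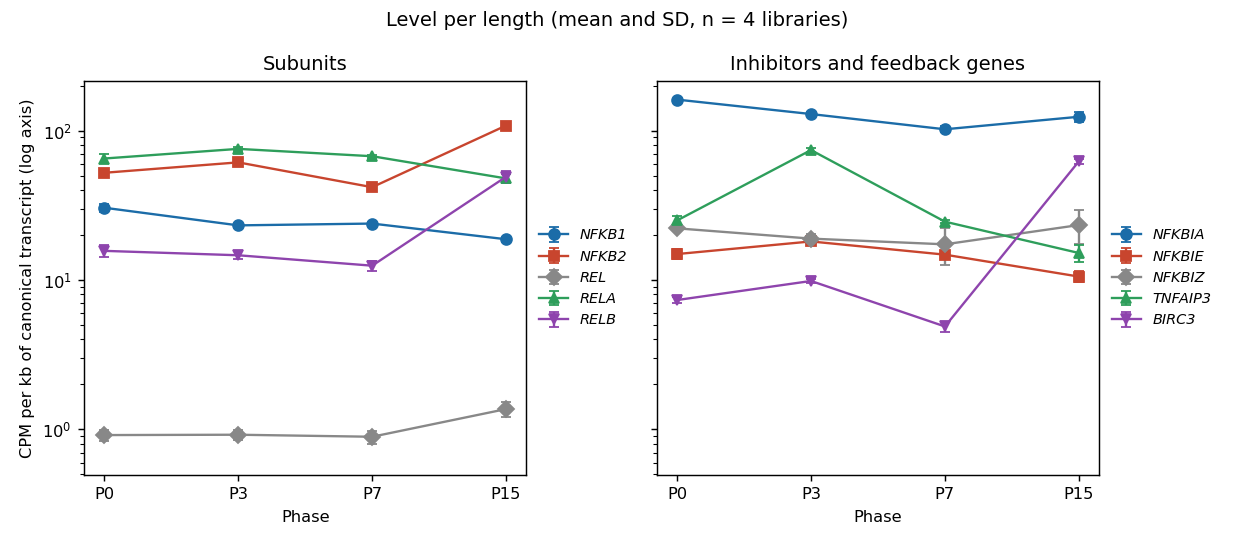
The lines plot CPM per kb of canonical transcript (vertical axis, logarithmic) of the subunits (left) and of the inhibitors and feedback genes (right) by phase (horizontal axis), as means and SD of 4 libraries. NFKB2 and RELB rise at P15 while RELA and NFKB1 fall, and the BIRC3 line passes above those of TNFAIP3, NFKBIE and NFKBIZ between P7 and P15.

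The rest of the pathway was described with lists of 12 receptors, 28 kinases and adaptors, 15 further inhibitors and 39 target genes. Of the receptors, 10 were tested. With limma, 0 of them were called at P3 against P0, beside 4.46% of all tested genes. There 8 had an unadjusted p below 0.05, beside 9422 of all 13249 tested genes. At P15 3 rose and 4 fell by 2-fold, beside 12.1% and 11.4% of all tested genes. The largest rises were those of IL1RAP (1.69) and IL1R1 (1.06), the chains of the IL1 receptor, and the largest falls those of TLR4 (-6.10, to a mean log2 value of 0.09), the endotoxin receptor, and LTBR (-2.14), the lymphotoxin receptor that feeds the non-canonical route, as log2 changes. The median change of the receptors was -0.44 at P15 against 0.04 for all tested genes. Beside LTBR, further receptors of the non-canonical route were chosen after their values were seen: CD40 and TNFRSF11A fell by 1.67 and 0.75, and TNFRSF12A, the TWEAK receptor, rose by 1.01.

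Of the 28 kinases and adaptors, limma called 0 at P3 against P0, beside 4.46% of all tested genes. There 20 had an unadjusted p below 0.05, beside 9422 of all 13249 tested genes, a similar share. At P15 0 rose by 2-fold and 5 fell, beside 12.1% and 11.4% of all tested genes. IKBKE, a kinase related to the IκB kinases, fell most (-4.15) and MALT1, a scaffold of antigen receptor and related signalling, next (-1.81). MAP3K14 (NIK) and the components that restrain it were chosen after their values were seen. TRAF3 fell by 1.03 from P0 to P15 (SE 0.04, limma, adjusted p = 2.2e-18), TRAF2 by 0.15 (SE 0.05, limma, adjusted p = 0.011), while the ubiquitin ligases BIRC2 and BIRC3 of the same complex rose by 0.75 and 3.06, as given above. MAP3K14 itself rose by 0.75 at P3 (SE 0.06, limma, adjusted p = 1.2e-10) and by 0.41 at P15 (SE 0.06, limma, adjusted p = 1.3e-06). Of the 15 further inhibitors, 7 were higher and 5 lower at P3 at an adjusted p below 0.05 (limma), and 8 and 6 at P15. Of all tested genes, 31.4% were higher and 37.3% lower at P3, and 45.3% and 40.9% at P15 (86.2% in all). By 2-fold, 1 rose at P3, TNIP3 (1.12), beside 1.95% of all tested genes, and 1 at P15, BCL3 (1.72), beside 12.1%. TNIP3 was low, with a mean log2 value of 0.865 in P0. BCL3 is an IκB protein that acts in the nucleus with p50 and p52 dimers.

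Of the 39 target genes, 35 were tested. At P3, 10 rose and 3 fell by 2-fold against P0, with CCL5 (4.98) and TRAF1 (2.68) highest and EFNA1 (-2.48) and LTB (-1.38) lowest. CCL5 started from a mean log2 value of 0.70 in P0, and LTB ended at 0.20 in P3. The median of the list was 0.39 against -0.03 for all tested genes. Between P3 and P7, 0 rose and 11 fell, most of all CXCL8 (-2.93), the neutrophil chemokine. In limma 30 of the 35 had an unadjusted p below 0.05, beside 8248 of all 13249 tested genes. The median of that step was -0.37 against 0.01. At P15 the list split, with 12 genes higher and 9 lower than in P0 and a median of 0.11. CCL5 (5.39) and CCL20 (3.95) rose most and G0S2 (-6.32) and CXCL5 (-6.11, to a mean log2 value of 0.06) fell most, and the median absolute change was 1.55 against 0.51 for all tested genes. Beside these counts, 1.95% of all tested genes were called higher and 2.51% lower at P3, 0.989% and 0.845% between P7 and P3, and 12.1% and 11.4% at P15.

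**Figure D5:**
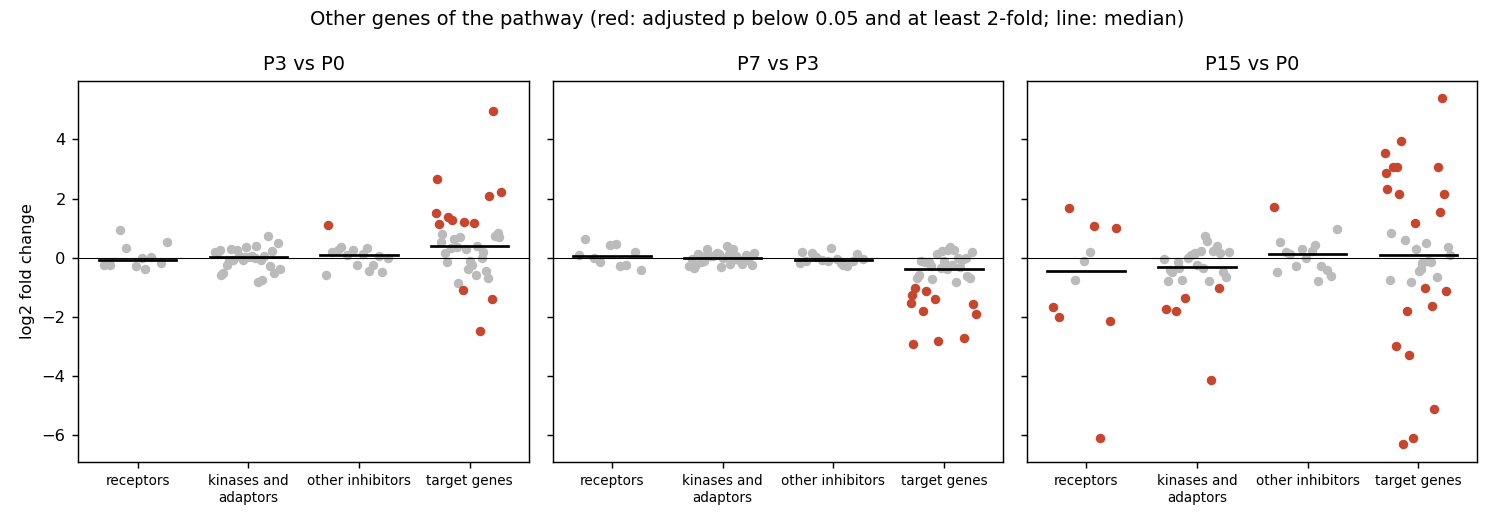
The points plot the log2 fold change (vertical axis) of each tested gene of the 4 lists (horizontal axis) at P3 against P0, P7 against P3 and P15 against P0, in red where called, with a line at the median. The target genes lie mostly above 0 at P3, mostly below 0 from P3 to P7, and on both sides at P15.

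The genes most like each called member were those with the highest Pearson correlation of log2 values over the 16 libraries, which fall into 4 phases, so the figures describe the phase pattern and carry no p. TNFAIP3 was most like IL11 (0.991), a cytokine of the IL6 family, and TAGLN (0.986), an actin-binding protein. BIRC3 was most like CHN1 (0.998) and MAGEA12 (0.996), NFKB2 most like NDE1 (0.995) and C19orf48 (0.993), and RELB most like PKN3 (0.993) and TOM1L1 (0.992).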

How the data were processed

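The authors sequenced RNA libraries, aligned the reads with STAR 2.6.1a (per the labels' processing notes) to GRCh38 and counted them per gene with featureCounts. The deposited table holds CPM on the log2 scale with 1 added, to 2 decimals. The annotation release, strand setting and handling of multi-mapping reads are not given in the sources used here. Quantile normalization and median centring, which the methods name, are not in the deposited values, which were used as they are. Library totals were estimated from steps between the smallest values (99.3% or more of low values lay on whole counts).

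Phases were compared with limma 3.58.1 (R 4.3.3): all 16 libraries in 1 fit with phase as the factor, a prior variance that follows expression, and p-values adjusted over 13249 genes by Benjamini-Hochberg. Balances were compared with exact permutation tests in scipy 1.17.1. Both procedures were tested on simulated data. Coordinates and lengths are from GENCODE version 44.

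The 10 genes, the lists and the rule for naming genes (all members, the largest called changes per list, the 2 genes most alike) were chosen with earlier results of these data known. Replicate numbers are those of the sample descriptions. The alternatives covered filters, pseudocounts, scaling, blocks, the variance prior, the call rule, inferred sequencing sets and each library left out.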

Additional observations from a re-analysis of the deposited data

Results flagged for a closer look

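Of 56 groups of 4 libraries (10 genes and 4 differences in 4 phases), 5 had 1 library whose gap to the nearest of the others exceeded Dixon's 95% critical share of the range, and chance alone gives about 1 in 20, or 2.8. In replicate 3 of P7, NFKBIZ was 6.60 against 5.86 to 5.95 in the others (ratio 0.878). Replicate 2 of P3 was the highest for NFKB2 (7.63 against 7.49 to 7.51, ratio 0.857), RELA (7.63 against 7.55 to 7.56, ratio 0.875) and RELB (5.21 against 5.04 to 5.05, ratio 0.941). Its sample-sheet number (1) fits either inferred set, and the part of the sequencing run in these values was not tested. Replicate 4 of P0 was highest for NFKB2 (7.40 against 7.26 to 7.28, ratio 0.857).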

How the results depend on the processing

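Counts of members called depended on the call rule. Dropping the fold threshold gave 7, 6 and 9 members at P3, P7 and P15 against P0, 7 for P7 against P3, and 8 and 10 for P15 against P3 and P7, and limma's treat test against 1.5-fold gave 1, 0, 5, 2, 5 and 3 in the same order. With P7 against P3, a pseudocount of 0.1 gave 2 calls, and leaving out single libraries of the phases compared gave 1 to 2. The other counts of members stayed within 1.5 times. Signs turned for small differences that had not passed in the comparisons as reported: NFKBIE at P7 against P0 (0.011 under quantile normalization, 0.0075 with equal medians), NFKBIA at P15 against P3 (0.0318 under quantile normalization), and, in the inferred set of 10 libraries, REL at P3 against P0 (-0.12) and P7 against P3 (0.085), RELB at P3 (0.03) and NFKBIZ at P15 (-0.17). That set holds a single P3 and a single P15 library, so each turn in it rests on a single library of P3 or P15. With single libraries left out, REL ranged from -0.0292 to 0.0542 at P3 and -0.09 to 0.0117 at P7, TNFAIP3 at P7 from -0.0508 to 0.0125, NFKBIE at P7 from -0.035 to 0.0417, NFKBIZ at P15 from -0.12 to 0.11, and NFKB2 minus NFKB1 at P7 from -0.0025 to 0.0608, each against P0. With replicate 3 of P7 and of P15 both left out, an alternative chosen after seeing the data, REL at P7 was 0.00667, and NFKBIZ passed with its sign turned at P15 against P0 (-0.12, limma, adjusted p = 0.024) and also at P3 against P0 (1.0e-04), P7 against P3 (4.0e-06) and P15 against P3 (0.044). RELB minus RELA at P7 against P0 was -0.34 under quantile normalization and no longer passed (adjusted p = 0.081, exact permutation test); the cause was not tested. Leaving out a library gives the balances no test, since 3 against 4 cannot reach 0.05.

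With the replicate number as a block, from the descriptions or from the titles, the members called were 1, 0, 3, 1, 3 and 3 for the 6 comparisons, as without it, and NFKBIZ passed at P3 against P0 (-0.23, limma, adjusted p = 0.029 and 0.031) and at P15 against P3 (0.27, limma, adjusted p = 0.00777 and 0.00866). Deviations of same-numbered libraries correlated at -0.15 to 0.22 across genes, with 1 of 24 pairs above 0.1. The median was 0.013, against -0.005 for pairs with different numbers. Whether same-numbered libraries were handled together was not tested.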

Other observations

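In replicate 3 of P7 and replicate 3 of P15, NFKBIZ stood 0.70 and 0.65 above the mean of the phase's other 3 libraries. Of the tested genes, 93 lay at least 0.5 higher in the first library and 113 in the second. In both, 4 did so: EGR1, EIF2S3L, AC007318.5 and NFKBIZ, named after their values were seen. Whether 4 is more than unrelated libraries would share was not tested. EGR1, an immediate early transcription factor, was 3.82 in that library of P7 against 3.17 to 3.25 in the others, and 8.37 in that of P15 against 7.29 to 7.65. EIF2S3L and AC007318.5 were low, at most 1.80 and 2.17 in any library. By phase, EGR1 was 1.84 to 2.89 in P0, 5.28 to 6.03 in P3, 3.17 to 3.82 in P7 and 7.29 to 8.37 in P15 (log2), while NFKBIZ did not separate P15 from P0.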
